A study of Homo sapiens with 24 samples.

Results

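The genes described here encode the proteins of the cytosolic ribosome. They were chosen by symbol: RPL or RPS followed by digits, with an optional A, X, Y or L, and RPLP0, RPLP1, RPLP2 and RPSA, with RPS4X, RPS4Y1, RPS4Y2 and pseudogenes left out. Of 80 RefSeq genes of that pattern, 67 had a probe set annotated to that gene alone and are the members, out of 18134 genes so covered. The large subunit contributed 44 of them and the small subunit 23. The other 13 genes were not analysed here as members.

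Transcript levels had been measured on 24 PrimeView arrays, which read the 3′ ends of mRNAs, in Caki-1 and 769-P, both derived from clear cell carcinomas of the kidney. Each line had 4 groups of 3 arrays: DMSO, the solvent, and 1 µM dasatinib, an inhibitor of SRC and ABL family kinases, for 6, 12 or 24 h. The labels name no other agent or genetic change and give no time for the DMSO arrays, so the same 3 served as the control at each time. Arrays within a group are numbered biological repeats, with nothing on whether each had its own culture, so p-values measure only the spread between these arrays. Each line is 1 established culture, and results hold for these lines only.

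A ribosome joins a small subunit, which decodes the mRNA, and a large subunit, which forms peptide bonds. Ribosomal protein mRNAs are among the most abundant of a growing cell. They typically begin with a 5′ terminal oligopyrimidine (TOP) tract, a C followed by an unbroken run of C and U, through which mTOR signalling and the protein LARP1 set how strongly they are translated, so that cells often change the synthesis of these proteins with little change in the mRNA. Genes for ribosome assembly, by contrast, are regulated mostly through transcription, with MYC as a known activator.

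RefSeq start windows (GRCh38.p14) were used for 55 of the 67 members, and a C at the start followed by 4 or more C or T letters was found for 41 of the 55 genes (74.5%), against 5.14% of all 27305 genes with a window. For 8 members that the results turn on, or that stand for a functional class, 20 bases before and 10 from the start are shown 5′ to 3′ on the gene's strand, with the pyrimidine run from the start in capitals.
RPS9, chr19:54200838-54200867, plus strand: cagccgtggcgcttccgcgcCTCTTTCTCa
RPL35, chr9:124861948-124861977, minus strand: aggtcagccccgcctacttcCTCTTTCCCT
RPL35A, chr3:197950170-197950199, plus strand: ccacgcggcggggcctcgtcCTTCTCTTac
RPS25, chr11:119018334-119018363, minus strand: ccgtttctgagcagcgcttcCTTTTTgtcc
RPS6, chr9:19380227-19380256, minus strand: gcgctaagcggaagttggccCTCTTTTCCg
RPL38, chr17:74203658-74203687, plus strand: ccggaaacggaagtctcgttCTTTTTCgtc
RPS27L, chr15:63157468-63157497, minus strand: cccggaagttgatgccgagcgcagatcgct
RPL10L, chr14:46651772-46651801, minus strand: gcgcgcaggcgtagttaagagagcgcattt
The first 6 begin with a tract and the last pair, paralogs with restricted or stress-linked expression, have no pyrimidine at the start. The hexamer CACGTG, the E-box bound by MYC and related factors, which reads the same on both strands, stood in the windows of 250 bases before to 50 after the start for 7.27% of the members, 8.77% of all genes and 40% of the ribosome biogenesis genes listed below (20 genes with a window). A match is a sequence only and shows no binding.

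The signals were log2 values brought to a common level across arrays before deposit. Array medians ran from 6.008 to 6.084, no 2 arrays were identical, and the lowest correlation within any group was 0.9928. The kidney markers KRT18, KRT8, PAX8 and LHX1 and the mesenchymal filament VIM were between 8.881 and 14.81 in both lines, while PAX2 was dimmer (5.837 and 6.692). The leukocyte and endothelial markers measured were at 5.887 or less, with PTPRC at 3.451 and 3.479. In bulk samples, fewer cells of a type and less RNA per cell cannot be told apart, and values scaled per array do not show the total mRNA of a cell.

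Members lay near the top of the scale. Their signal averaged over all 24 arrays had a median of 14.262, 60 of the 67 were above 13, and the highest value of any probe set on any array was 15.19. The 7 below 13 were RPL13 (12.461), RPL36 (11.943), RPL35A (11.219), RPL39L (9.1178) and, near background, RPL10L (5.9847), RPL27A (5.3349) and RPL3L (4.8142). RPL3L, the striated muscle paralog of RPL3, was below the filter on dim probe sets in both lines and RPL27A below it in 769-P, which left 66 members tested in Caki-1 and 65 in 769-P. Of the 67 probe sets used, 55 carry an ending (_x_at or _s_at) that the manufacturer gives to probe sets able to match other transcripts, so their signal may include other transcripts. Since affinity differs between probe sets, levels serve below to sort probe sets by brightness, not to compare transcript amounts between genes.

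At 24 h of dasatinib most ribosomal protein signals stayed within 0.1 log2 units of their DMSO level while those of most other expressed genes did not. These signals lie near the top of the scale, where a change can be compressed, and the part of saturation was not tested. In Caki-1, 14 of 66 members fell and 6 rose at an adjusted p under 0.05, against 62.8% of all 12423 genes called in either direction (32.9% higher and 29.9% lower). In 769-P, 9 of 65 fell and 4 rose, against 55.7% of 12354 genes (31.1% higher and 24.6% lower). The median member change was -0.0234 in Caki-1 and -0.0199 in 769-P, beside medians over all genes of 0.0794 and 0.0389, and 49 members in each line lay within 0.1 of 0. When each array was shifted to a common median, the split in Caki-1 became 33 lower and 2 higher with a median of -0.0772, and in 769-P 10 lower and 2 higher with a median of -0.0337, so the number of small falls in Caki-1 depends on the scaling. Here and below, no share over all genes is given under that shift, so counts under it have no background beside them. The test is limma's moderated test on log2 values with Benjamini-Hochberg adjustment over all genes tested.

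**Figure D1:**
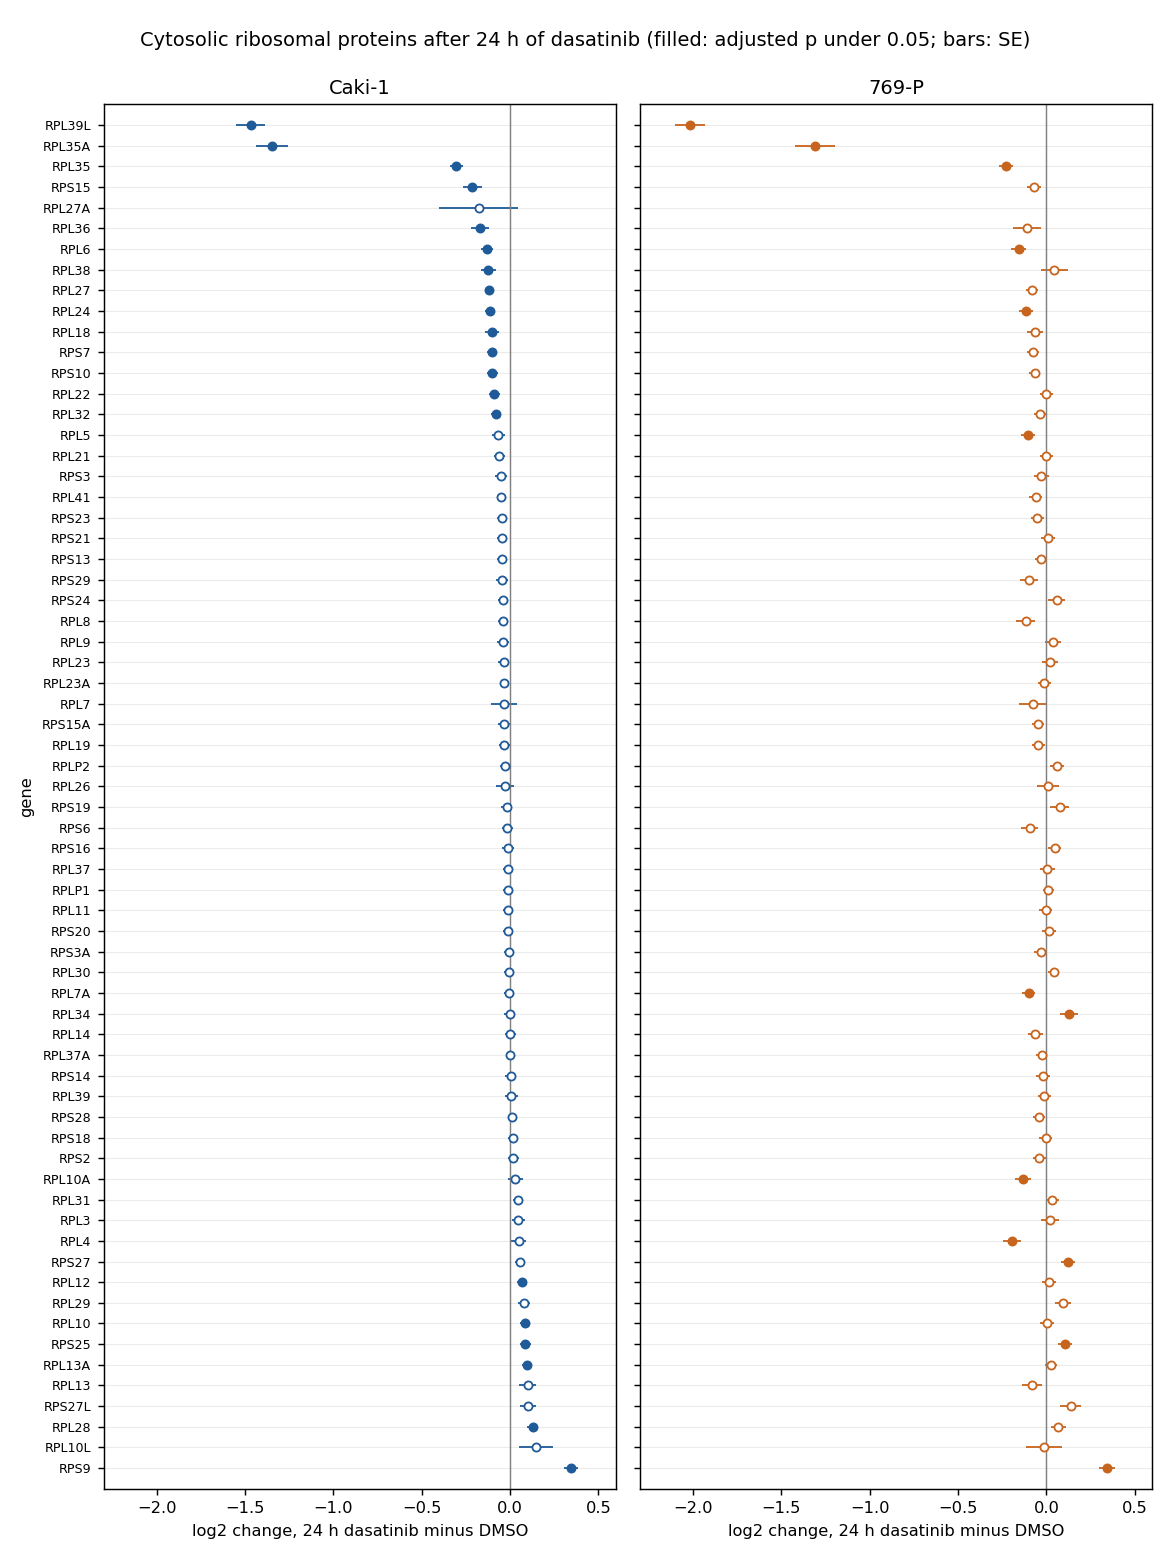
Log2 change of each tested member at 24 h of dasatinib minus DMSO, in Caki-1 (66 genes) and 769-P (65 genes, RPL27A not tested); points are estimates from 3 arrays a group, bars are SE and filled points passed an adjusted p of 0.05. RPL39L and RPL35A stand apart at the left in both panels, RPS9 at the right, and the other genes lie close to 0.

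On the deposited values, fewer members were called than other bright genes. This comparison was not repeated with arrays shifted to a common median. Among members above 13, 17 of 60 (28.3%) were called in Caki-1 at 24 h and 11 of 60 (18.3%) in 769-P, whereas among the 161 other genes above 13 the shares were 73.9% and 71.4%. The median size of change was 0.0446 for these members and 0.232 for the other bright genes in Caki-1, and 0.0474 and 0.209 in 769-P. Above 14, 26.2% of 42 members and 63.3% of 30 other genes were called in Caki-1, and 9.52% and 63.3% in 769-P, where members still had the higher median signal (14.44 against 14.3). The median SE of all tested members was 0.0309 in Caki-1 and 0.0405 in 769-P, beside 0.1 and 0.105 over all genes. Above 13 it was 0.0302 and 0.0397 for members and 0.0419 and 0.0498 for other genes, so the gap is smaller among bright genes.

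The deepest fall was in RPL39L, a paralog of the exit-tunnel protein RPL39 that is expressed mainly in testis and in some tumours. In Caki-1 the DMSO arrays read 10.7089, 10.7167 and 10.6757, the 12 h arrays 10.4125, 10.1984 and 10.1875, and the 24 h arrays 9.3295, 9.3319 and 9.039. In 769-P the DMSO arrays read 8.9181, 8.7931 and 8.8334, the 12 h arrays 8.0739, 7.8569 and 7.9525, and the 24 h arrays 6.7679, 6.8697 and 6.8557. At 12 and 24 h no treated array overlapped its DMSO group in either line. Non-overlap was a condition for naming members by their change against DMSO, here and below, so it is no separate support. The change in Caki-1 was -0.43 ± 0.082 (SE, n = 3 a group, adjusted p = 0.000458) at 12 h and -1.47 ± 0.082 (adjusted p = 1.23e-09) at 24 h, a 2.764-fold lower signal. In 769-P it was -0.89 ± 0.085 (adjusted p = 4.55e-07) and -2.02 ± 0.085 (adjusted p = 1.88e-11), 4.048-fold lower. RPL39 itself, read by a probe set with a mean signal of 14.493, changed by 0.0078 in Caki-1 and -0.011 in 769-P at 24 h (adjusted p = 0.861 and 0.843). RPL39L has 1 probe set here, so no other probe set could be set beside it.

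RPL35A, a large subunit protein whose mutation causes Diamond-Blackfan anaemia, fell at 12 and 24 h in both lines. Its probe set read 12.0452, 12.1231 and 11.9628 in Caki-1 DMSO and 10.9069, 10.6354 and 10.5484 at 24 h. In 769-P it read 11.6739, 11.5484 and 11.3846 in DMSO and 10.5043, 10.1445 and 10.0265 at 24 h. The groups do not overlap in either line. The change at 24 h was -1.35 ± 0.089 (adjusted p = 6.43e-09) in Caki-1 and -1.31 ± 0.11 (adjusted p = 7.3e-08) in 769-P. Of its other probe sets, those at 8.57 and 14.58 changed by less than 0.1, as described below for several genes. Another, below the dim filter and not tested, read 5.051, 5.165 and 5.164 in Caki-1 DMSO and 4.185, 4.101 and 4.488 at 24 h.

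RPL35, which lies beside the exit tunnel where the signal recognition particle docks, fell less but in both lines and with both of its probe sets. In Caki-1 it read 14.0799, 14.0679 and 14.0315 in DMSO and 13.7521, 13.7493 and 13.7636 at 24 h, and in 769-P 14.0842, 14.0184 and 13.9734 in DMSO and 13.8292, 13.7667 and 13.7945 at 24 h. All 24 h arrays were below all DMSO arrays. The change was -0.30 ± 0.037 (adjusted p = 3.58e-06) in Caki-1 and -0.23 ± 0.039 (adjusted p = 0.000107) in 769-P, and its second probe set gave -0.3052 and -0.2564.

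**Figure D2:**
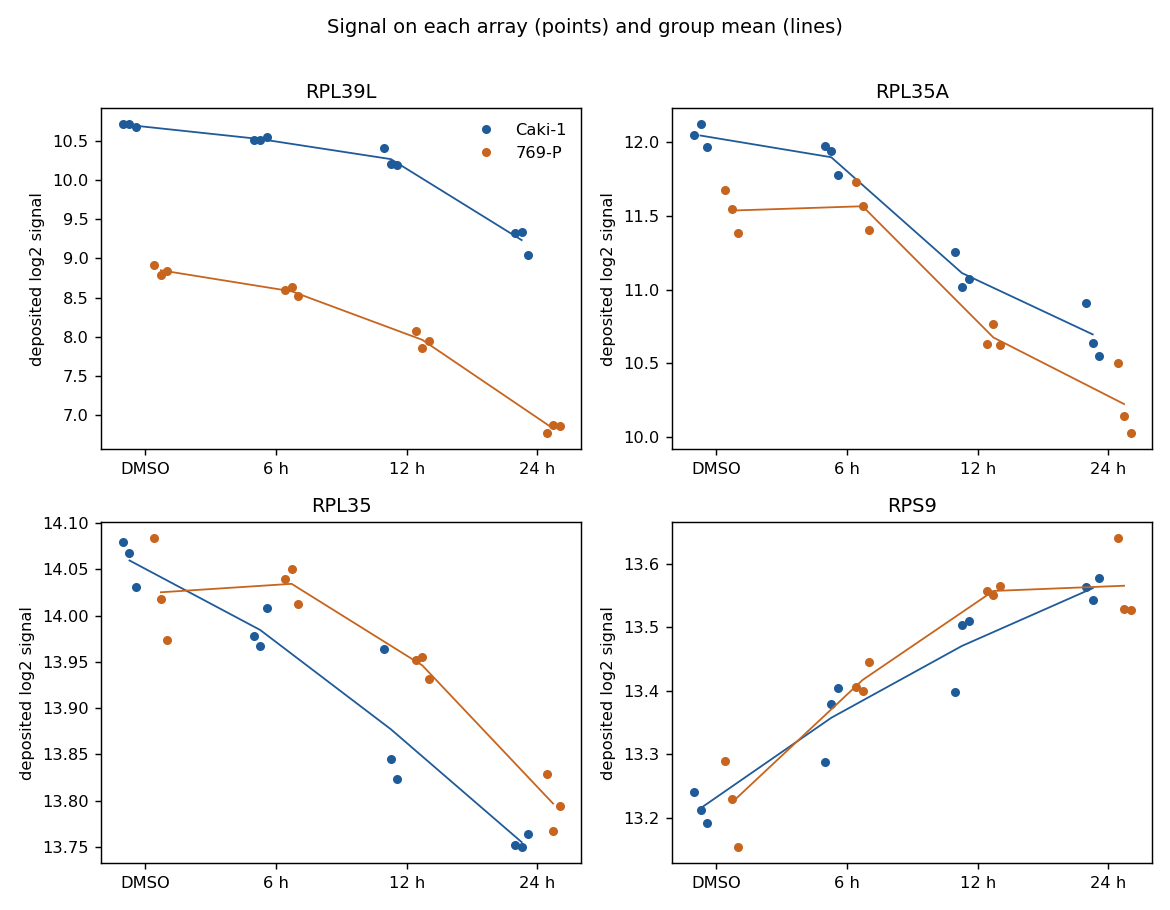
Deposited log2 signal on each array (points, 3 a group) and the group means (lines) for RPL39L, RPL35A, RPL35 and RPS9, in Caki-1 and 769-P, under DMSO and after 6, 12 and 24 h of dasatinib; each panel has its own vertical scale. RPL39L, RPL35A and RPL35 are lowest at 24 h in both lines, and every treated array of RPS9 is above the DMSO arrays of its line.

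The remaining falls of the large subunit were small. In Caki-1 at 24 h RPL36 fell by 0.17 (SE 0.050), RPL6 by 0.13 (SE 0.033) and RPL38 by 0.12 (SE 0.042), and RPL27, RPL24, RPL18, RPL22 and RPL32 by between 0.12 and 0.079. In 769-P RPL4, which narrows the exit tunnel, fell by 0.20 (SE 0.050), RPL6 by 0.16 (SE 0.043), RPL10A by 0.13 (SE 0.044), RPL24 by 0.11 (SE 0.039) and RPL7A by 0.10 (SE 0.035). RPL38, known for its part in translating selected developmental mRNAs, lost its call in Caki-1 without replicate 1 of DMSO (-0.106), without replicate 3 of 24 h (-0.0797) or when its other probe sets were averaged in (-0.0840). The RPL38 call was also lost without limma's intensity trend and in a joint fit on all 24 arrays (limma, adjusted p = 0.103 and 0.102). In all, 11 of 43 large subunit members fell and 4 rose in Caki-1, and 9 of 42 fell and 1 rose in 769-P. Beside these counts, 29.9% of all genes fell and 32.9% rose in Caki-1, and 24.6% and 31.1% in 769-P.

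RPL5 and RPL11 form a particle with 5S rRNA that can bind MDM2 and so stabilise p53. RPL11 changed by -0.011 in Caki-1 and -0.0044 in 769-P at 24 h (adjusted p = 0.747 and 0.935). RPL5 fell in 769-P at each time, by 0.12 at 6 h, 0.14 at 12 h and 0.10 at 24 h (adjusted p = 0.0384, 0.0134 and 0.0449), while in Caki-1 its change at 24 h was -0.066 (adjusted p = 0.132). The line difference for RPL5 did not pass the test at any time, and the calls at 6 and 24 h were each lost without any 1 DMSO replicate or without replicate 1 or 3 of the treated group (limma, adjusted p up to 0.179 and 0.148), and at 12 h without its replicate 2 (0.0574). RPLP1 and RPLP2, the acidic stalk proteins that recruit elongation factors, changed by -0.012 and -0.029 in Caki-1 and by 0.012 and 0.062 in 769-P, with no call.

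Among the small subunit, RPS9 was the member that rose in all 6 comparisons with DMSO. RPS9 lies at the channel through which mRNA enters. It read 13.241, 13.212 and 13.1923 in Caki-1 DMSO, 13.2882, 13.3798 and 13.4044 at 6 h, 13.3986, 13.5028 and 13.5103 at 12 h, and 13.5635, 13.5428 and 13.5778 at 24 h. In 769-P it read 13.2893, 13.2296 and 13.1535 in DMSO, 13.4057, 13.4002 and 13.4452 at 6 h, 13.557, 13.5501 and 13.5641 at 12 h, and 13.6406, 13.5285 and 13.5267 at 24 h. Every treated array was above every DMSO array of its line, as the naming rule required. The rise was 0.14 ± 0.041, 0.26 ± 0.041 and 0.35 ± 0.041 at 6, 12 and 24 h in Caki-1 (adjusted p = 0.0174, 9.99e-05 and 2.75e-06) and 0.19 ± 0.046, 0.33 ± 0.046 and 0.34 ± 0.046 in 769-P (adjusted p = 0.00451, 2.06e-05 and 1.02e-05). At 24 h this is 1.271-fold and 1.267-fold. The Caki-1 call at 6 h was lost without replicate 2 or 3 of either DMSO or 6 h (0.119 to 0.141), and its single probe set ends in _s_at.

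RPS15, near the decoding centre, fell in Caki-1 by 0.15 at 12 h and 0.21 at 24 h (SE 0.055, adjusted p = 0.0329 and 0.00354) and in 769-P changed by -0.072 at 24 h (adjusted p = 0.139). RPS7 and RPS10 fell in Caki-1 at 24 h by 0.10 and 0.099 (adjusted p = 0.00532 and 0.012). RPS6, the protein phosphorylated by S6 kinase downstream of mTOR, changed by -0.016 ± 0.031 in Caki-1 and -0.094 ± 0.048 in 769-P at 24 h (adjusted p = 0.671 and 0.113). In all, 3 of 23 small subunit members fell and 2 rose in Caki-1, and none fell and 3 rose in 769-P (limma, 1 lower at an unadjusted p under 0.05). Beside these counts, 29.9% of all genes fell and 32.9% rose in Caki-1, and 24.6% and 31.1% in 769-P. Whether the subunits differ was not tested.

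Other rises were small. In Caki-1 at 24 h RPL28 rose by 0.13 (SE 0.032), RPL13A by 0.096 (SE 0.027), RPL10 by 0.083 (SE 0.029) and RPL12 by 0.065 (SE 0.027). Of these, RPL10, RPL13A and RPL12 lost the call when arrays were shifted to a common median (0.0291, 0.0426 and 0.0115), and RPL10 without replicate 1 or 3 of DMSO or replicate 2 of 24 h (0.0655 to 0.0827). In a fit without the intensity trend RPL28, RPL13A and RPL10 lost the call (limma, adjusted p = 0.0619, 0.133 and 0.202). RPL10 also lost it under quantile normalization (limma, adjusted p = 0.053). In 769-P RPS27 rose by 0.12 (SE 0.040) and RPL34 by 0.13 (SE 0.051). The RPS27 call was lost without DMSO replicate 2 or 24 h replicate 1 (0.0932 and 0.0963), and that of RPL34 without DMSO replicate 1 or 24 h replicate 1 or 2 (0.0775 to 0.138), under the median shift (0.113) and on probe sets without an _x_at or _s_at ending (0.0217). RPS25, which some viral and cellular mRNAs need for internal initiation, rose by 0.087 in Caki-1 and 0.10 in 769-P at 24 h (adjusted p = 0.025 and 0.042). The RPS25 calls were lost in Caki-1 without DMSO replicate 3 or 24 h replicate 2 (0.0692 and 0.0678), and in 769-P without DMSO replicate 2 or 3 or 24 h replicate 1 or 3 (0.0714 to 0.107). Both were also lost under the median shift (0.0329 in Caki-1 and 0.09 in 769-P) and without the intensity trend (limma, adjusted p = 0.186 in each). Without the trend RPS27 and RPL34 lost their calls in 769-P as well (limma, adjusted p = 0.121 and 0.15). Averaging all probe sets of the gene turned the sign for RPS25 (-0.335 in Caki-1 and -0.1625 in 769-P) and for RPL34 in 769-P (-0.330).

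Of the other paralogs, RPS27L and RPL10L gave no call against DMSO and RPL3L was not tested. RPS27L, a p53-induced paralog of RPS27, changed by 0.10 in Caki-1 and 0.14 in 769-P at 24 h (adjusted p = 0.0739 and 0.0678). RPL10L, the testis paralog of RPL10, changed by 0.15 and -0.012 at signals close to background (adjusted p = 0.203 and 0.937). RPL3, partner of RPL3L, changed by 0.048 and 0.020 (adjusted p = 0.284 and 0.789).

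Probe sets of the same gene did not always move together. The 67 members have 174 single-gene probe sets, and 49 members have 2 or more. Among 108 such probe sets with a mean signal above 13, 29.6% were called in Caki-1 at 24 h and 18.5% in 769-P, with median sizes of change of 0.0456 and 0.0501. Among 17 between 9 and 13 the shares were 76.5% and 58.8%, with medians of 0.243 and 0.264. Among those under 9 the shares were 53.1% of 32 and 32.3% of 31. Over all probe sets of the array that passed the filter, 59.3% and 52% were called. The part that signal level or cross-matching plays in this was not tested. The probe-set fit and the genes named from it here were chosen after the values were seen.

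RPS14, the small subunit protein whose loss of a copy underlies the 5q- syndrome, showed the widest gap. Its brightest probe set, with a mean of 14.47, changed by 0.0028 in Caki-1 and -0.020 in 769-P at 24 h. A probe set of the same gene at 10.98 read 12.085, 12.166 and 12.038 in Caki-1 DMSO and 10.169, 10.104 and 10.051 at 24 h, a change of -1.99 ± 0.096. In 769-P it read 12.238, 12.001 and 11.806 in DMSO and 9.562, 9.161 and 9.308 at 24 h, a change of -2.67 ± 0.14. A further RPS14 probe set at 11.02 gave -1.81 and -2.49. None of the 24 h arrays of these dimmer probe sets came within 1 log2 unit of a DMSO array.

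RPL35A, RPL34 and RPS25 also had a probe set that fell beside a brighter one that changed little. For RPL35A, the probe set at 8.57 changed by 0.08 in Caki-1 and -0.03 in 769-P at 24 h, and the brightest, at 14.58 and annotated to RPL35A and ZNF391, by -0.067 and -0.025, while the member probe set at 11.22 fell by over 1 unit in both. For RPL34, a probe set at 9.34 changed by -1.06 ± 0.10 and -1.14 ± 0.15 (adjusted p = 2.6e-07 and 1.01e-05), beside -0.0019 and 0.13 at 13.83. For RPS25, a probe set at 8.78 changed by -1.20 ± 0.14 and -0.50 ± 0.10 (adjusted p = 2.57e-06 and 0.000577), beside 0.087 and 0.10 at 13.87. Dimmer probe sets also rose: RPS29 at 7.47 by 1.17 and 1.07, RPL28 at 8.56 by 1.10 in Caki-1 with a change of -0.25 in 769-P, and, at a bright 13.64, a second RPL13A probe set by 0.56 and 0.45. Single-gene probe sets called with a change beyond 0.5 at 24 h, other than the member's brightest, numbered 12 of 10 genes in Caki-1 (6 higher, 6 lower) and 9 of 8 genes in 769-P (2 higher, 7 lower). That is 13.2% and 9.89% of the 91 such probe sets tested, against 33.5% and 32.4% of all probe sets at the same size and threshold.

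**Figure D3:**
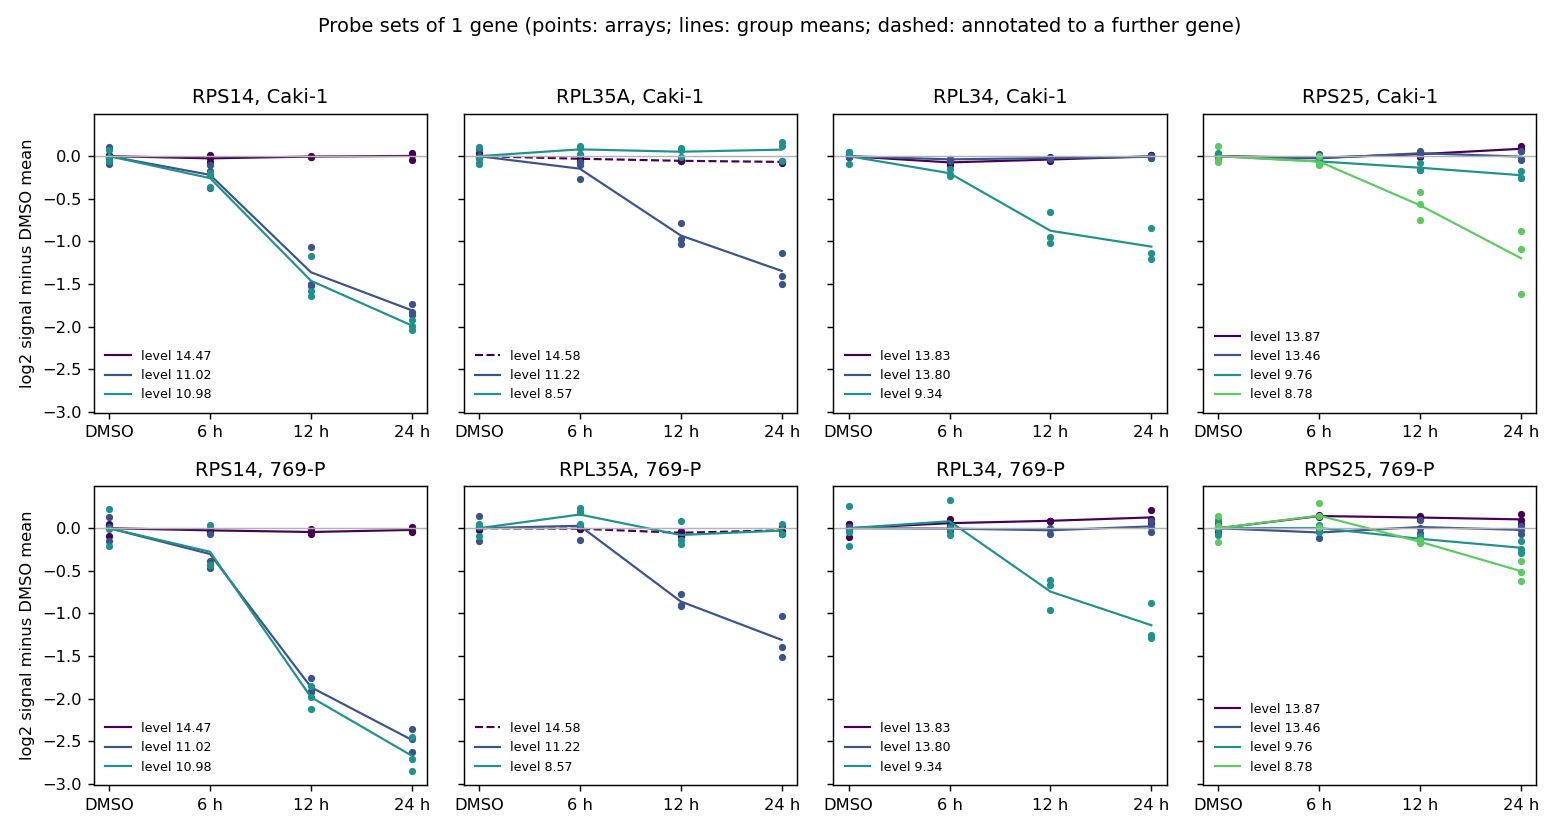
Log2 signal minus the mean of the DMSO arrays for each probe set of RPS14, RPL35A, RPL34 and RPS25 with a mean above 5.5, in Caki-1 (top) and 769-P (bottom), by treatment group; points are arrays, lines are group means, and the dashed line is a probe set annotated to RPL35A and ZNF391. In each panel the brightest probe set stays near 0 and 1 or more dimmer ones fall at 12 and 24 h.

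RPS26, a further Diamond-Blackfan gene, is no member because its probe sets carry more than 1 annotation entry, and both fell in both lines. The one at 13.39, which also names the pseudogene RPS26P3, read 13.637, 13.701 and 13.674 in Caki-1 DMSO and 12.877, 12.865 and 12.72 at 24 h, a change of -0.85 ± 0.051. In 769-P its change was -0.25 ± 0.050 (adjusted p = 0.000659), and the dimmer one gave -1.41 and -0.73.

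More members were called at later times. In Caki-1, 1 member was called at 6 h (RPS9), against 26.3% of all genes (12.3% higher), and 10 at 12 h (8 lower, 2 higher) against 48.4% (24.4% lower, 24.1% higher). In 769-P, 5 were called at 6 h (RPL39L, RPL4 and RPL5 lower, RPS25 and RPS9 higher) against 30.9% (14.5% lower, 16.4% higher), and 6 at 12 h (4 lower, 2 higher) against 47.5% (22.6% lower, 24.9% higher). The 6 h call of RPL39L in 769-P, -0.27, was lost without DMSO replicate 1 or 3 or 6 h replicate 1 or 3 (-0.233 to -0.276), and that of RPL4, -0.14, without any 1 DMSO replicate or without 6 h replicate 1 or 2 (-0.0903 to -0.161). That of RPS25, 0.14, was lost without DMSO replicate 3 (0.127), and averaging probe sets moved RPS25 to 0.0611 and RPL5 to -0.0645 (adjusted p = 0.415 and 0.258). With arrays shifted to a common median the splits were 2 lower and 1 higher at 6 h in Caki-1, 16 lower and 2 higher at 12 h in Caki-1, and 7 lower and 2 higher at 12 h in 769-P. Of the 65 members tested in both lines, 39 were never called against DMSO in any of the 6 comparisons and 26 (40%) were called at least once, against 80.6% of the 11913 genes tested in both lines.

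Comparing 24 h with 6 h, which uses no DMSO array, 9 members were lower and 4 higher in Caki-1 against 53.7% of all genes (25.6% lower, 28.1% higher), and 9 lower and 1 higher in 769-P against 44.3% (18.5% lower, 25.8% higher). RPL39L changed by -1.29 in Caki-1 and -1.75 in 769-P, RPL35A by -1.20 and -1.34, RPL35 by -0.23 and -0.24, and RPS9 by 0.20 and 0.15, the latter a call lost without 6 h replicate 2 or 24 h replicate 1 of 769-P (0.14 and 0.111). RPL24 (-0.097 and -0.15) and RPS15 (-0.15 and -0.11) also fell in both. With arrays shifted to a common median the splits were 15 lower and 2 higher in Caki-1, and 5 lower and 2 higher in 769-P. Between 6 and 12 h, 4 members fell in Caki-1 and none rose (26.9% of all genes, 14.5% lower and 12.5% higher), and 2 fell and 1 rose in 769-P (19.1%, 10.2% lower and 8.91% higher). Between 12 and 24 h, 3 fell in Caki-1 (25.2%, 14.2% lower and 10.9% higher) and 4 in 769-P (27.7%, 10.8% lower and 17% higher), and none rose. By limma, 2 members in Caki-1 between 6 and 12 h, 3 in Caki-1 and 0 in 769-P between 12 and 24 h were higher at an unadjusted p under 0.05. RPL35A fell mostly between 6 and 12 h (-0.78 and -0.89, then -0.42 and -0.45), and RPL39L mostly between 12 and 24 h (-1.03 and -1.13, after -0.26 and -0.62); whether these steps differ was not tested.

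The falls at 24 h shared by the lines were RPL24, RPL35, RPL35A, RPL39L and RPL6, 35.7% of the 14 in Caki-1 and 55.6% of the 9 in 769-P. The shared rises were RPS25 and RPS9, 33.3% of 6 and 50% of 4. RPS25 was lost in both lines under the median shift and turned in sign when its probe sets were averaged. No member was called in opposite directions. The overlap of calls between the lines over all genes is not given. These shares and the lack of opposite calls therefore have no background beside them. The difference between the responses of the lines was tested directly on all 24 arrays. At 6 h 1 member differed, with a lower value in Caki-1 (8.09% of all genes, 3.68% higher and 4.42% lower). At 12 h 2 were higher in Caki-1 (18.9%, 8.67% higher and 10.3% lower) and at 24 h 4 were (36%, 13.8% higher and 22.1% lower). At 24 h RPL39L fell less in Caki-1 than in 769-P by 0.55 ± 0.12 (adjusted p = 0.000582), and RPL4, which changed by 0.048 in Caki-1, differed by 0.24 ± 0.064 (adjusted p = 0.00439). The RPL4 call was lost when all its probe sets, including a probe set near background, were averaged (0.0478; limma, adjusted p = 0.738). RPL10A differed by 0.16 ± 0.060 (adjusted p = 0.037). RPL27A passed the test at 12 and 24 h only as a nominal value: it was below the dim filter in 769-P (5.361), where its arrays read 4.2556 to 4.5216 at 24 h, so its difference has no usable size. With quantile normalization the 24 h split was 4 higher and 5 lower in Caki-1 relative to 769-P, and with arrays shifted to a common median 3 higher and 4 lower.

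Under DMSO the lines differed in most members. There, 34 of 66 members were higher in Caki-1 and 15 higher in 769-P, 49 in all, against 58.7% of 12864 genes (28.8% higher and 29.9% lower), with a median difference of 0.0749 beside -0.0399 over all genes. RPL39L was 1.85 ± 0.081 higher in Caki-1, which is 3.611-fold (adjusted p = 6.52e-16). RPL38 was 0.81 ± 0.064 higher: its Caki-1 arrays read 13.6799, 13.6201 and 13.6411 and its 769-P arrays 12.8721, 12.8444 and 12.8004. RPS6 was 0.55 ± 0.039 higher, with 14.2273, 14.2842 and 14.2367 against 13.6561, 13.6851 and 13.7548. RPL35A, RPL36 and RPL8 were higher by 0.51, 0.42 and 0.38. None of these groups overlap.

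Lower in Caki-1 were RPL26, a protein known to bind p53 mRNA, by 0.32 ± 0.060 (values 13.8108, 13.8296 and 13.8046 against 14.0443, 14.2674 and 14.094), and RPL5, by 0.32 ± 0.038 (13.846, 13.8791 and 13.9165 against 14.1866, 14.2106 and 14.1904). RPL27A, near background at 5.3876 against 5.9475, was lower by 0.56 ± 0.19, a call lost without replicate 2 of Caki-1 DMSO (-0.419, adjusted p = 0.0887). Brighter probe sets annotated to RPL27A and SNORA3A went the other way, at 7.005 in Caki-1 against 6.728 in 769-P and 6.38 against 6.085. RPL28, RPL13A and RPS27L were lower by 0.22, 0.18 and 0.17, RPL13A with a sign that turned when its probe sets were averaged (0.0125) and RPS27L with a call lost without 769-P DMSO replicate 3 (-0.117). RPL11 and RPL3 were higher by 0.26 each. For RPL3 the sign turned on its only probe set without an _x_at or _s_at ending (-0.179), near background at 5.716 and 5.895. Its other probe sets read 14.03 in Caki-1 against 13.78 in 769-P, and 13.32 against 12.99. RPS27, RPLP1 and RPL39 were higher by 0.20, 0.11 and 0.092, the last a call lost without any 1 Caki-1 DMSO replicate or 769-P DMSO replicate 1 (0.0618 to 0.098). The RPL39 call was also lost under quantile normalization, the median shift and without the dim filter (limma, adjusted p = 0.0629, 0.0684 and 0.0547). A fit without the intensity trend ended the calls of RPL39 and RPLP1 (limma, adjusted p = 0.159 and 0.0607).

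**Figure D4:**
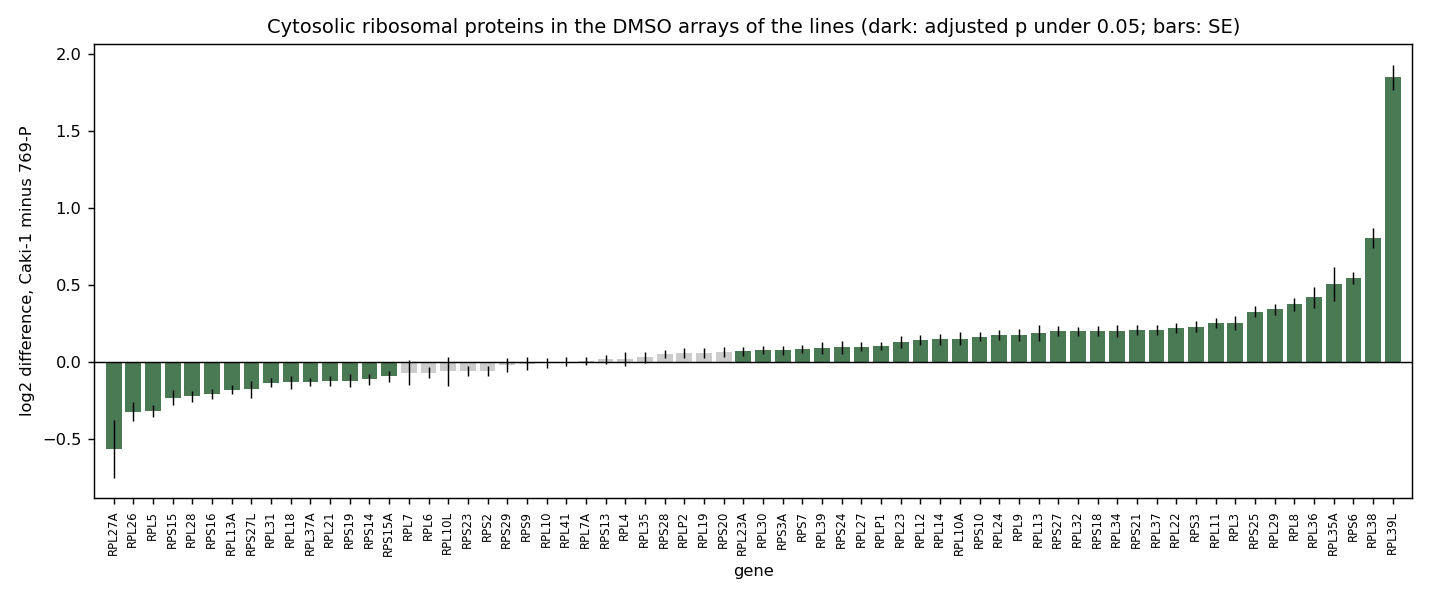
Difference in log2 signal between the DMSO arrays of Caki-1 and of 769-P (3 arrays each) for the 66 tested members, sorted; bars rising above 0 are higher in Caki-1, thin lines are SE and dark bars passed an adjusted p of 0.05. RPL39L, RPL38 and RPS6 are at the high end and RPL27A, RPL26 and RPL5 at the low end, with RPL27A read near background.

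Genes that build and carry ribosomal proteins mostly fell in both lines. At 24 h, 29.9% of all genes were lower and 32.9% higher in Caki-1, and 24.6% and 31.1% in 769-P. Of 25 ribosome biogenesis genes, 24 fell and 1 rose in Caki-1 at 24 h (median -1.13), and 21 fell and none rose in 769-P (median -0.903; limma, 0 higher at an unadjusted p under 0.05). LYAR, a nucleolar protein, changed by -2.32 and -2.43, and NOP16, an assembly factor of the large subunit, by -2.12 and -1.65. Of 12 escorts and importers, the chaperones and import receptors that bring new ribosomal proteins to the nucleolus, 10 fell and none rose in each line (medians -0.837 and -0.764; limma, 0 higher at an unadjusted p under 0.05). The importin IPO5 changed by -1.41 and -1.47, and BCCIP, a chaperone of RPL23, by -1.37 and -1.27.

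Mitochondrial ribosomal proteins, which build the separate ribosome of mitochondria, fell in 67 of 73 cases and rose in 2 in Caki-1 (median -0.577), and fell in 42 and rose in 7 in 769-P (median -0.234). Of all genes, 29.9% fell and 32.9% rose in Caki-1, and 24.6% and 31.1% in 769-P. MRPL39 changed by -1.32 and -0.78. The difference between the lines at 24 h passed the test for 46 of the 73, of which 45 fell further in Caki-1. Over all genes 36% passed it, 13.8% higher and 22.1% lower in Caki-1. A TOP tract was found at a start of 8.82% of the 68 mitochondrial genes with a window.

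Other TOP mRNAs, which encode translation factors and a few further proteins, moved both ways. Of 18, 8 rose and 3 fell in Caki-1 (median 0.0548), and 5 rose and 6 fell in 769-P (median 0.0198), 61.1% called in each line beside 62.8% and 55.7% of all genes. The initiation factor subunits EIF3L and EIF3F rose by 0.30 and 0.27 in Caki-1 and by 0.40 each in 769-P, EIF4B rose by 0.81 and 0.27, and NAP1L1, a histone chaperone, fell by 0.38 in 769-P. Among the members themselves, 8 of 41 with a tract fell and 6 rose in Caki-1 (median -0.0126), and 5 of 14 without a tract fell and none rose (median -0.035). In 769-P, 4 of 40 with a tract fell and 4 rose, and 3 of 14 without a tract fell and none rose; this contrast was not tested.

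**Figure D5:**
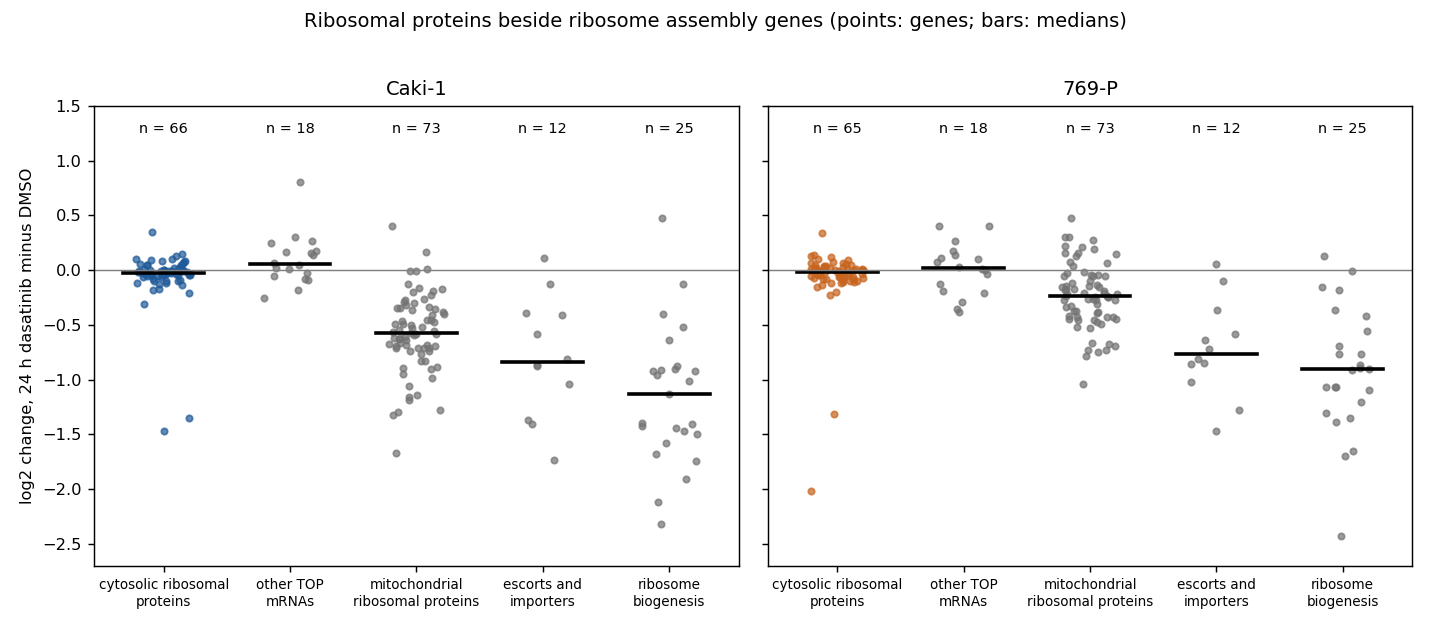
Log2 change at 24 h of dasatinib minus DMSO for the cytosolic ribosomal proteins (coloured) and for 4 other gene lists (grey), in Caki-1 and 769-P; each point is a gene, n is the number tested, sideways spread is for display, and black bars are medians. The cytosolic ribosomal proteins lie close to 0 apart from RPL39L and RPL35A, while the medians of the mitochondrial, escort and biogenesis genes lie below 0 in both lines.

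Ribosomal proteins outside the symbol rule included paralogs that fell. RPS4X and RPL36AL changed by 0.02 each in Caki-1 and by 0.01 each in 769-P, while RPL22L1, the paralog of RPL22, changed by -1.14 and -1.15 and RPL7L1, a nucleolar relative of RPL7, by -0.90 and -0.72. RPL26L1 fell by 0.33 in Caki-1 and rose by 0.26 in 769-P. Of the 6 tested, 4 fell in Caki-1, and 2 fell and 1 rose in 769-P. Of all genes, 29.9% fell and 32.9% rose in Caki-1, and 24.6% and 31.1% in 769-P.

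Host genes of small nucleolar RNAs, several of which are TOP transcripts, were split, with 3 of 7 rising and 1 falling in Caki-1 and 3 rising and 3 falling in 769-P. SNHG1 changed by -1.61 and -1.68, and EPB41L4A-AS1 rose by 0.84 and 0.76. Of 21 genes that control ribosomal protein synthesis, 7 rose and 10 fell in Caki-1, and 7 rose and 8 fell in 769-P. Beside both lists, 62.8% of all genes were called in Caki-1 (32.9% higher, 29.9% lower) and 55.7% in 769-P (31.1% higher, 24.6% lower). DDIT4, an inhibitor of mTOR complex 1, rose by 2.08 and 2.01. EIF4EBP1, the repressor of eIF4E that mTOR phosphorylates, changed by -1.26 and -1.78, and EIF4E by -1.12 and -0.79.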

How the data were processed

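Per the labels, total RNA of 24 samples was labelled from the 3′ end and hybridised to PrimeView arrays. The values used are the log2 signals that the authors deposited for each probe set on each array. MAS5 is the tool in the submitters' processing notes, with no version given, and how it was applied to an array of perfect-match probes is not given in the sources used here. Of 49395 probe sets, 102 were controls, 44988 had 1 gene symbol, 1832 several and 2473 none. A gene was represented by its brightest single-gene probe set. Genes under the 40th percentile of probe set means in a line were left out. Groups came from the labels alone.

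Comparisons within a line used its 12 arrays (8 residual degrees of freedom), and those between lines all 24 (16), in limma 3.58.1 (R 4.3.3; lmFit, then eBayes with an intensity trend), with Benjamini-Hochberg adjustment over all genes and a threshold of 0.05. On simulated 24 h data the fit recovered 99% of changes of 1 log2 unit, 68% of changes of 0.5 in Caki-1 and 69% in 769-P. Far fewer genes changed there than in the data (100 by 0.5 and 96 by 1 of 12530 in Caki-1), at any level past the dim filter. The simulation therefore does not measure the power for small changes of bright members. Alternatives covered scaling, the filter, the trend, the probe set rule, the fit, a replicate block and leaving out each array. The main fits used no pairing, and the replicate number entered only as the block among the alternatives. As a check for pairing, same-numbered arrays were correlated. Every such pair was above 0.1 in 769-P for 6 h and 24 h against DMSO (0.11 to 0.36 and 0.12 to 0.17) and between its treated groups. In Caki-1 this held for 12 h against 6 h.

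The members and lists were chosen with earlier results of these data known. Named members were the 3 largest calls of each sign per comparison whose arrays did not overlap, the 3 largest of each sign between lines, and a set fixed by role; from each other list, up to 3 calls per line at 24 h. Other called members are named for completeness after their values were seen. Promoter windows are RefSeq's.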

Additional observations from a re-analysis of the deposited data

Results flagged for a closer look

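For 7 results the response of the lines differed in a direct test of the difference (limma, interaction on all 24 arrays, Caki-1 change minus 769-P change). RPL39L differed by 0.4529 (SE 0.115, adjusted p = 0.00624) at 12 h and 0.5502 (SE 0.115, adjusted p = 0.000582) at 24 h, with all treated arrays of both lines below their DMSO arrays at these times. RPL27A gave 1.022 at 12 h and 1.351 at 24 h, values of no usable size because it entered the test through Caki-1 alone and was below the dim filter in 769-P; its 769-P arrays were 5.8947, 5.9472 and 6.0007 under DMSO and 4.2556, 4.5216 and 4.4789 at 24 h, and its Caki-1 groups overlap, all near the dim filter. RPL4 differed by 0.2445 (adjusted p = 0.00439) at 24 h, a call lost when all its probe sets were averaged (0.0478, adjusted p = 0.738). Its sign turned on probe sets without an _x_at or _s_at ending (-0.272, adjusted p = 0.487). The only such RPL4 probe set was near background, at 5.978 in Caki-1 DMSO and 4.532 in 769-P DMSO. RPL10A differed by 0.1615 (adjusted p = 0.037) at 24 h. RPS25 differed by -0.1612 (adjusted p = 0.035) at 6 h, a call lost when any of 9 of the 12 arrays was left out.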

How the results depend on the processing

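The falls of RPL39L, RPL35A and RPL35 and the rise of RPS9 at 24 h kept their direction and stayed past the threshold under each alternative in which they were tested. RPS9 has no probe set without an _s_at ending. Counts of called members changed as follows, in the order 6 h, 12 h, 24 h against DMSO and 24 h against 6 h. The share over all genes under each alternative is not given beside them, here or in the next paragraph. A change in these counts therefore cannot be read as particular to the members. Averaging all single-gene probe sets of a gene gave 3, 18, 32 and 26 in Caki-1, 17 at 12 h, 24 at 24 h and 20 for 24 h against 6 h in 769-P, and 0, 5 and 12 for the differences between lines at 6, 12 and 24 h. It turned RPS25 to -0.3352 at 24 h and -0.293 for 24 h against 6 h in Caki-1 and to -0.03603 at 12 h and -0.1625 at 24 h in 769-P, RPL34 in 769-P to -0.3301 at 24 h, and RPL13A between lines under DMSO to 0.01245. Probe sets without an _x_at or _s_at ending gave 2 at 6 h in 769-P, 0, 4 and 9 for the differences between lines and 18 under DMSO, with RPL4 at -0.2724 and RPL3 at -0.1792. The values of RPL4 and RPL3 rest on probe sets near background. Quantile normalization gave 9 differences between lines at 24 h. Shifting arrays to one median gave 3, 18 and 35 in Caki-1 and 7 differences between lines at 24 h. Without the dim filter there were 3 at 6 h and 6 for 24 h against 6 h in 769-P, and 0 differences at 6 h. Without the intensity trend there were 0, 4, 6 and 4 in Caki-1, 2, 3, 5 and 3 in 769-P, and 0 differences at 6 h. One fit on all 24 arrays gave 10 at 12 h in 769-P. The causes were not tested.

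Leaving out 1 array gave 0 to 1, 6 to 11, 16 to 21 and 8 to 14 in Caki-1, 1 to 6, 3 to 12, 8 to 16 and 5 to 8 in 769-P, 0 to 1, 2 to 3 and 3 to 6 for the differences between lines, and 44 to 46 under DMSO. Caki-1 at 12 h gave 6 without 12 h replicate 2 or 3, and 24 h against 6 h gave 8 without 6 h replicate 2. In 769-P, 12 h gave 12 without DMSO replicate 1 and 3 without 12 h replicate 2, and 24 h gave 8 without DMSO replicate 2. There, 6 h gave 3, 1, 2 and 3 without DMSO replicate 2, DMSO replicate 3, 6 h replicate 1 and 6 h replicate 3, and 24 h against 6 h gave 5 without 6 h replicate 1 or 2 and 6 without 6 h replicate 3 or 24 h replicate 3. With the replicate number as a block the counts were 1, 12, 20 and 14 in Caki-1, 5, 6, 14 and 11 in 769-P, 1, 3 and 5 for the differences between lines and 44 under DMSO. The block moved no count of members against DMSO by over 1.5 times and ended no call of a member named by the rule. Precision is limited by 3 arrays a group and, for RPL27A and RPL10L, by signals near background.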
